A study of Rattus norvegicus with 9 samples.

Results

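Ultraconserved regions are measured on this array by probes whose names carry a uc. number and a strand, + or -. Of 959 such probes, for 480 region numbers, 453 (47.2%) were detected, meaning that the IP or the Sup spot was well above background on at least 3 of the 9 arrays. The regions described here are the detected probes whose opposite-strand probe of the same number was not detected, 83 on the + strand and 90 on the - strand. Together they make up 18% of the uc. probes and 36.0% of the region numbers. Another 140 region numbers were detected on both strands, which gives 280 probes (29.2%), and 167 numbers (34.8%) on neither. For 1 uc. probe the array had no opposite-strand probe, so it was not counted. The regions were selected on the measured signal itself, so their detection and the difference between their strands are described without a test.

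N6-methyladenosine (m6A) was measured in the cortex of the ischemic side of male Sprague Dawley rats, on 9 arrays with 3 per group. Each array is labelled as 1 replicate and is taken here as 1 rat. Control rats had the same neck surgery without the plug that blocks the middle cerebral artery, model rats had that artery occluded and then reperfused, and model + BHD rats had the same injury and received Buyang Huanwu Decoction (BHD), a herbal formula. The labels put the model and model + BHD samples at 7 days, while the dose and schedule of BHD and the time point of the control rats are not given in the sources used here. The cortex was taken whole, so fewer cells of a type and less RNA per cell cannot be told apart.

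In each rat an anti-m6A antibody divided the RNA into a bound fraction (IP), labelled with Cy5, and the supernatant (Sup), labelled with Cy3, and both were hybridised to 1 array. The log2 ratio of IP to Sup was taken as the relative m6A level. The dyes were not swapped, so each ratio includes any dye bias of its probe, which drops out of a comparison between groups. By their scan times, slide 1 carried all 3 control rats together with model replicate 1. Slide 2 carried the other model rats and BHD replicates 1 and 2, while BHD replicate 3 was alone on slide 3. Between 72.4% and 83.1% of all probes were detected on an array, and no spot was saturated. Of the 21 brain cell markers listed for a check of the tissue, 2 could be matched to a probe, the neuronal genes Map2 and Dlg4, and both were detected on all 9 arrays. With 3 rats per group, 0.1 is the smallest two-sided p that exact permutation can reach for any value, so the number of arrays limits the precision.

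Ultraconserved regions are stretches of the genome that are identical between human, mouse and rat. Many are transcribed, some from introns or between genes as long non-coding RNAs and others as alternatively spliced exons of genes for RNA-binding proteins, and they can be read from either strand. m6A is placed on RNA by a methyltransferase complex, can be removed by demethylases, and is bound by reader proteins that affect splicing, stability and translation.

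Of these regions, uc.440- is the one whose PCR primers the study lists, and it also gave the largest called differences between groups. The primers are printed because they are the designed sequences that mark this transcript. The positions of the regions in the rat genome and the sequences of the array probes were not analysed here.
uc.440- forward primer: atgagttacaaccttcacgcag
uc.440- reverse primer: accagcatttaatttcagccc

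Most regions were detected on every array. Of all regions, 105 (60.7%) were above background on all 9 arrays, and 14 were detected on exactly 3. The opposite strand was above background on no array for 136 regions (78.6%), on 1 array for 25 and on 2 arrays for 12. Both conditions in their strictest form, the region on all 9 arrays and its opposite strand on none, held for 78 regions (45.1%).

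**Figure D1:**
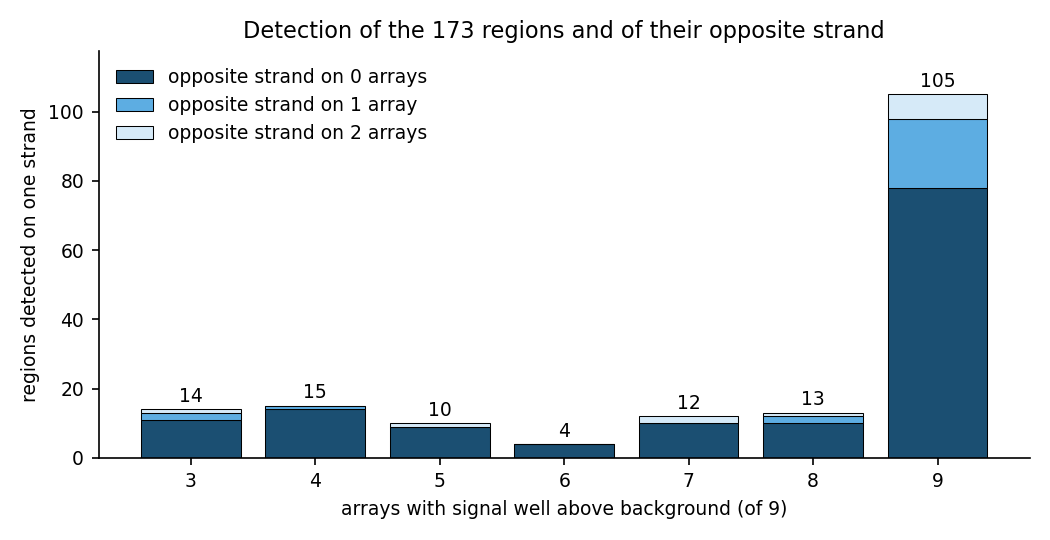
Number of regions (y axis) by the number of arrays on which the detected strand was well above background (x axis, 3 to 9 of 9). The shades give the number of arrays on which the opposite strand was above background. The column at 9 arrays holds 105 of the regions, and each other column holds 15 or fewer.

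On the control arrays 130, 123 and 149 of the regions were above background, on the model arrays 169, 143 and 145, and on the model + BHD arrays 154, 166 and 130. Of all probes, 72.4%, 73.8% and 77.9% were detected on the control arrays and 83.1%, 76.3% and 77.6% on the model arrays. On the model + BHD arrays the shares were 79.4%, 81.4% and 75.9%. Model replicate 1, with the most regions, was also the array on which the largest share of all probes was detected (83.1%). The part of an array's overall sensitivity in the differences between groups was not tested. A region was detected on all 3 arrays of a group in 117 cases for control, 130 for model and 126 for model + BHD. No control array detected 20 regions, no model array 1 region, and no model + BHD array 2 regions.

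A single region was detected in 1 group only. uc.108+ was above background on the 3 model + BHD arrays and on no other. Its IP signal was 6.02, 6.05 and 6.05 in the control rats, 5.96, 6.09 and 6.07 in the model rats, and 6.13, 6.08 and 6.27 in the model + BHD rats (normalized log2 units). These values overlap between model and model + BHD and lie close to the lower end of the scale, 5.64, which the offset of 50 added in the background correction sets.

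At the edge of the rule stood 25 regions. Detected on exactly 3 arrays were uc.43-, uc.94+, uc.108+, uc.145-, uc.151-, uc.152-, uc.213-, uc.232-, uc.236+, uc.311-, uc.321-, uc.411+, uc.441- and uc.466-, with a mean IP signal over the 9 arrays from 5.91 to 6.16 and a mean Sup signal from 5.96 to 6.18. The opposite strand was above background on exactly 2 arrays for 12 regions, among them uc.132-, uc.155-, uc.167+, uc.191-, uc.213-, uc.224+, uc.245+, uc.271+, uc.280+, uc.427+ and uc.470+. Just outside the rule were 10 probes detected on exactly 3 arrays whose opposite strand was detected too, on all 9 arrays in 9 cases and on 8 in the other, with mean IP signals from 5.95 to 6.08. A further 22 probes, above background on exactly 2 arrays, belonged to regions with neither strand detected. Inside and outside the rule these signals covered nearly the same range, so membership at the edge turns on small differences.

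Most regions gave dim signals. The median normalized IP signal of the regions was 6.32 in control, 6.31 in model and 6.26 in model + BHD, and the median Sup signal 6.30, 6.30 and 6.24. The undetected opposite-strand probes had mean IP signals from 5.86 to 6.07, with a median of 5.95. Over all 33334 detected probes of the array the median IP signal was 7.02, 7.00 and 7.00 in the same order. A signal depends on the probe as well as on the RNA, so levels of different regions are given beside each other and not ranked as amounts of RNA.

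The IP channel carried the detection of many regions alone. IP and Sup were each above background on at least 3 arrays for 113 regions (65.3%), IP but not Sup for 51 (29.5%), and Sup but not IP for 6 (3.47%), while 3 reached 3 arrays only when both channels were counted together. Among the probes of regions detected on both strands these shares were 70.7%, 27.9% and 1.43%, and among all detected probes 87.8%, 10.9% and 0.927%. On every one of the 9 arrays IP and Sup were both above background for 55 regions, which are the ones whose ratio is best measured.

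The relative m6A level of the regions centred near 0, where loess normalization within arrays places the bulk of the ratios of each array. A shift shared by all probes of an array is thereby removed. The median log2(IP/Sup) was -0.0043 in control, 0.0018 in model and 0.011 in model + BHD over all regions, with a range in control from -3.49 to 1.33. For these 55 regions it was -0.11, -0.04 and -0.06, against 0.18, 0.12 and 0.19 for 127 such probes of regions detected on both strands and -0.02, -0.0069 and -0.02 for 22586 such probes of all kinds. The median SD between the control rats was 0.11 for the 55 regions. These levels contain the dye effect of each probe, and the offset pulls the ratio of dim probes towards 0. How many regions stood apart depended on the processing, and the cause was not tested. In control IP exceeded Sup by at least 1.5-fold for 10 regions and Sup exceeded IP for 8. The counts were 52 and 29 with the processed signals, 14 and 6 with median centring, and 23 and 4 without normalization within arrays. In the deposited table they were 59 and 20 of the 164 regions. Without normalization within arrays, the median change in the ratio from control to model was -0.60 for the tested regions and -0.56 for all tested probes. From model to model + BHD it was 0.55 and 0.51.

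The lowest ratios belonged to uc.247+ and uc.483-, whose signal was several times higher in Sup than in IP. For uc.247+, log2(IP/Sup) was -3.23, -3.74 and -3.50 in the control rats, -3.79, -3.94 and -3.52 in the model rats, and -3.47, -3.48 and -3.17 in the model + BHD rats. In control its Sup signal was thus 11.2 times its IP signal. For uc.483- the ratio was -3.36, -2.63 and -2.61 in control, -2.70, -1.79 and -2.02 in model, and -3.01, -2.43 and -1.70 in model + BHD, or a Sup signal 7.31 times the IP signal in control. Every array had a negative ratio for both regions. The groups overlapped for uc.483-, whereas for uc.247+ the 3 model + BHD values lay above the 3 model values. Next among the 55 regions were uc.448- with a control mean of -1.24 ± 0.28, uc.344+ with -0.97 ± 0.23 and uc.432+ with -0.78 ± 0.40 (SD, n = 3 each). Outside the 55 regions, uc.369+ (-1.01 ± 0.13) and uc.403- (-0.91 ± 0.13), named after their values were seen, lay in the same range. IP was above background on no array for uc.369+ and on 8 arrays for uc.403-. With the processed signals of the scanner software uc.369+ had the lowest control mean of all regions, -4.53, against -3.71 for uc.483- and -3.70 for uc.247+.

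At the other end, the IP signal exceeded the Sup signal most for uc.128-, uc.84-, uc.354+, uc.243+ and uc.298- among the 55 regions. For uc.128- the control rats had log2(IP/Sup) values of 1.20, 1.05 and 1.22, the model rats 0.72, 0.46 and 0.82, and the model + BHD rats 1.21, 0.90 and 0.07. The 3 model rats lay below the 3 control rats, while model + BHD replicate 3 lay below all others. For uc.84- the control values were 0.54, 1.21 and 1.33, the model values 1.07, 1.13 and 1.23, and the model + BHD values 0.73, 0.76 and 0.77. The model + BHD rats lay below the 3 model rats, while control spanned both groups. The control means of uc.354+, uc.243+ and uc.298- were 1.02 ± 0.20, 1.00 ± 0.18 and 0.70 ± 0.26 (SD, n = 3 each). Without the condition on both channels the highest control mean was that of uc.481+, 1.33 ± 0.19 (SD, n = 3), a region named after its values were seen, with Sup above background on 8 arrays.

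**Figure D2:**
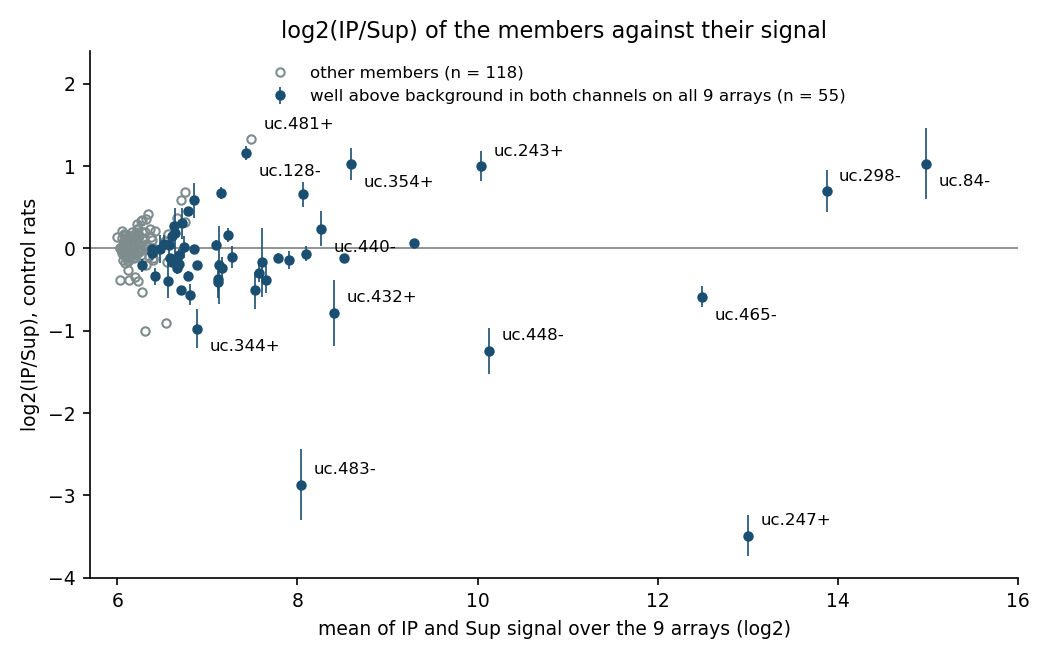
Mean log2(IP/Sup) of the 3 control rats (y axis) against the mean of IP and Sup signal over the 9 arrays (x axis, log2 units) for all regions. Filled points are the 55 regions with IP and Sup above background on all 9 arrays, with the SD of the control rats as a bar, and open points are the other 118. IP exceeded Sup by at least 1.5-fold for 10 regions and Sup exceeded IP by as much for 8, of which uc.247+ (-3.49) and uc.483- (-2.87) lie lowest.

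A few regions gave strong signals on the detected strand beside an opposite strand that was not above background on any array. For uc.84- the mean IP signal in control was 15.56 ± 0.19 (SD, n = 3), while the IP signal of its opposite strand had a mean of 5.93 over the 9 arrays. In the channel named, the same pair of values was given by uc.298- (IP 14.28 ± 0.14, opposite strand 5.98), uc.247+ (Sup 14.96 ± 0.28, opposite strand 5.92), uc.465- (Sup 13.05 ± 0.10, opposite strand 5.96) and uc.448- (Sup 11.18 ± 0.34, opposite strand 5.96; SD, n = 3 each). Since the strands were chosen for this difference, it is a description and was not tested.

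Some regions known from other work were among the members. uc.160, known from studies of CpG island methylation in tumours, was detected on the - strand on 8 arrays, with log2(IP/Sup) of 0.11 ± 0.07, 0.11 ± 0.08 and 0.12 ± 0.07 in control, model and model + BHD (SD, n = 3 each). Its + strand did not pass the detection rule, and the strand of the transcript in those studies was not compared with the strand detected here. The region that overlaps an alternatively spliced exon of SRSF3, the gene of a splicing factor, was also at the edge of the rule, with its opposite strand above background on 2 arrays. It was detected on the - strand, with ratios of -0.39 ± 0.21, -0.55 ± 0.33 and -0.33 ± 0.01. The region in the gene of the RNA-binding protein HNRNPK gave -0.19 ± 0.10, -0.13 ± 0.06 and -0.16 ± 0.09 on the - strand. The ratios of these 3 regions overlapped between the groups. The genes are given as background from the human genome, since the files pair no region with a rat gene. uc.77-, for which the study also lists primers, was detected together with its opposite strand and is therefore not included.

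Region numbers run along the chromosomes of the human genome. Of 67 pairs of members with consecutive numbers, 40 (59.7%) were on the same strand, against 49.8% of all pairs of members. There were 8 runs of at least 3 consecutive numbers on 1 strand, the longest with 4: uc.131- to uc.134-, uc.331- to uc.334- and uc.353+ to uc.356+. Within a run the ratio varied, with control means of 0.16, 1.02, -0.14 and 0.66 from uc.353+ to uc.356+, and 0.67, -0.02, 0.24 and -0.09 from uc.331- to uc.334-. Probes of 1 run may measure parts of 1 transcript, so these regions are not independent of each other, and no test was made.

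For the comparisons between groups, limma was fitted over all tested probes, and a probe was called at a fold change of at least 1.5 with an unadjusted p under 0.05, the thresholds of the study. Model and control were compared over 31640 probes, among them 146 of the regions. The other regions were above background on fewer than 3 of the 6 control and model arrays. Model + BHD and model were compared over 33132 probes and all regions, with the spread estimated from the 9 arrays. Both comparisons use the same model rats.

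The first comparison asks whether regions differed between rats with and without cerebral ischemia and reperfusion. The IP signal of uc.440- rose in model against control, its Sup signal rose too, and the IP signal of uc.92- fell. No log2(IP/Sup) was called among the 146 regions, while 0.613% of all 31640 probes were. The IP signal was called for 2 regions (1.37%) against 1.39% of all probes, and the Sup signal for 1 region (0.685%) against 1.24%. After Benjamini-Hochberg adjustment over all probes no region had a limma p under 0.05, and the smallest adjusted p of any probe was 0.766 for the ratio, 0.527 for IP and 0.700 for Sup.

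For uc.440-, the IP signal was 8.37 and 8.49 in control replicates 1 and 3, and 9.18, 9.61 and 10.11 in the model rats. Control replicate 2 had no value, because its spot carried the outlier mark of the scanner software. All 3 model rats lay above both control rats, and the difference was +1.20 on the log2 scale (SE 0.28), a 2.30-fold higher mean (limma adjusted p = 0.688). The Sup signal was 7.99 and 8.40 in control against 9.11, 9.10 and 9.28 in model, a difference of +0.97 (SE 0.15, 1.96-fold, limma adjusted p = 0.700). The exact permutation test over the 2 control and 3 model values gave p = 0.1 in either channel, the smallest this design allows. Within slide 1, where the control rats can be set against model replicate 1 alone, the differences were +0.75 for IP and +0.92 for Sup.

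As IP and Sup moved the same way, the ratio of uc.440- changed less than its signals. The log2(IP/Sup) values were 0.39 and 0.09 in control and 0.07, 0.51 and 0.83 in model, which overlap, with a difference of +0.23 (SE 0.24, limma adjusted p = 0.812). The study itself picked uc.440- at random among the lncRNAs it found differentially methylated on its arrays. By PCR on the bound and supernatant RNA, a different assay, it reported a significantly higher methylated share of uc.440- in model. It described this as the same trend as in its array result, whereas the ratio was not called here.

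For uc.92-, the IP signal was 8.74, 8.82 and 8.99 in control and 8.61, 7.94 and 8.06 in model. The groups did not overlap, and the difference was -0.64 (SE 0.18, 1.56-fold, limma adjusted p = 0.709). Its call was lost within slide 1, where the difference from model replicate 1 was -0.24, and without control replicate 3 (-0.58), model replicate 2 (-0.51) or model replicate 3 (-0.57). Its Sup signal was lower by a similar amount, -0.48 (SE 0.16), which was under 1.5-fold.

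At an unadjusted p under 0.05 without a minimum fold, the ratio differed for 2 regions (1.37%) against 3.76% of all probes, the IP signal for 4 (2.74%) against 6.27%, and the Sup signal for 11 (7.53%) against 7.04%. The ratios, named after their values were seen, were those of uc.128- (-0.49, SE 0.12) and uc.402+ (-0.31, SE 0.09), both lower in model. Besides uc.440- and uc.92-, the IP signals were those of uc.481+ (+0.41, SE 0.10) and uc.320- (-0.18, SE 0.06). Among the 11 Sup signals 3 were higher and 8 (72.7%) lower in model, against 67.6% lower over all probes.

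Groups without overlap were found for 15 of 142 regions in the ratio (10.6%, against 8.27% of all probes), for 20 in IP (14.1%, against 11.3%) and for 23 in Sup (16.2%, against 12.9%). Of these, 6, 8 and 10 were higher in model and 9, 12 and 13 lower. The shares of regions lay near those of all probes, and the median change of the 146 regions was 0.0073 in the ratio and -0.01 in Sup. Normalization removes shifts shared by all probes, so these medians are relative to the other probes.

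Some large differences did not pass the test. For uc.197+, named after its values were seen, the IP signal was 8.46, 6.90 and 6.33 in control and 6.15 and 6.05 in model replicates 1 and 3, while the spot of model replicate 2 carried the outlier mark. Control replicate 1 lay far above the other rats, and the mean difference was -1.13 (SE 0.64, limma unadjusted p = 0.134). The ratio of uc.483-, given above per rat, was higher in model by 0.70 (SE 0.29, limma unadjusted p = 0.0511), with overlapping groups. Deviations in the ratio correlated to a varying degree between same-numbered rats, so the replicate number was also fitted as a block. With the block the ratio was called for 1 region, uc.483-, instead of none, and the Sup signal for 2, uc.440- and uc.197+, instead of 1.

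The second comparison asks what differed between injured rats with and without BHD. The regions called in signal were all lower in model + BHD than in model: uc.440-, uc.448-, uc.354+ and uc.10- in IP, and uc.440-, uc.448-, uc.432+, uc.247+, uc.465- and uc.115- in Sup. Without normalization within arrays, which put the median IP change of all probes at 0.24, IP was called higher for 4 regions (uc.176+, uc.194-, uc.366- and uc.480+, named after their values were seen) and lower for uc.440- and uc.448- alone, and the split over all probes went from 485 higher and 1254 lower to 2316 and 521. The one ratio called was that of uc.432+, which was higher in model + BHD. The called shares were 0.578% (1 region) against 2.6% of all 33132 probes for the ratio, 2.31% (4 regions) against 5.25% for IP, and 3.47% (6 regions) against 2.92% for Sup. No region had a limma adjusted p under 0.05, while 1 of all probes had one in IP and 2 in Sup.

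uc.440- gave the largest of these differences. Its IP signal was 9.18, 9.61 and 10.11 in the model rats and 7.27, 7.16 and 6.75 in the model + BHD rats, so the groups lay far apart. The difference was -2.57 (SE 0.24), a 5.95-fold lower mean, with an unadjusted limma p of 1.53e-05 and an adjusted p of 0.108. No other of the 33132 probes tested had a lower change in IP. Its Sup signal was 9.11, 9.10 and 9.28 in model against 7.43, 7.11 and 6.76 in model + BHD, a difference of -2.06 (SE 0.18, 4.17-fold, limma adjusted p = 0.0629). Both exact permutation tests gave the smallest possible p of 0.1.

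The call of uc.440- did not depend on 1 slide or 1 rat. Within slide 2, which holds model replicates 2 and 3 and BHD replicates 1 and 2, the differences were -2.64 in IP and -1.92 in Sup, and without BHD replicate 3 they were -2.42 and -1.89. Over 12 other settings of processing, filter or fit, the IP difference lay between -3.52 and -2.45 and the Sup difference between -3.03 and -1.92. Among these, other probe filters, the replicate block and a fit without the control arrays gave the same differences as the main fit. Each difference was called in all 12. Over the 12 settings and the fits without 1 array, the limma adjusted p ranged from 2.47e-07 to 0.592 for IP and from 2.88e-12 to 0.952 for Sup. The ratio of uc.440- was 0.07, 0.51 and 0.83 in model and -0.16, 0.05 and -0.02 in model + BHD. These values did not overlap, but the difference of -0.51 (SE 0.19, limma adjusted p = 0.434) was under 1.5-fold. It passed that fold and was called within slide 2 and with the slide as a block (-0.73), without model replicate 1 (-0.71), and with median centring.

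**Figure D3:**
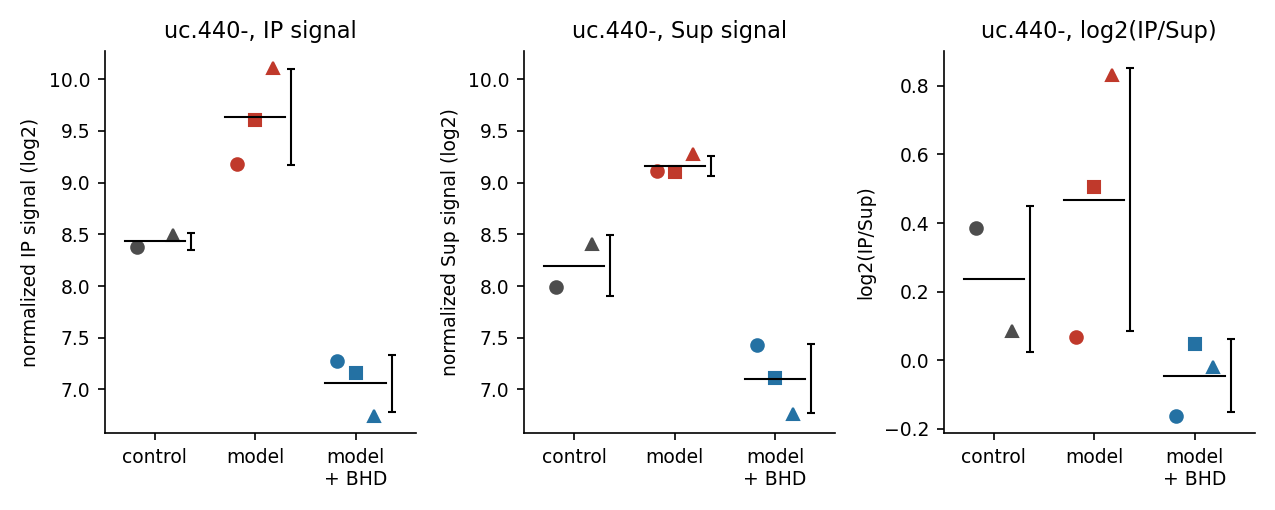
IP signal, Sup signal (log2 units) and log2(IP/Sup) of uc.440- in each rat (y axes) by group (x axis). Circles, squares and triangles are replicates 1, 2 and 3, lines are group means and bars SDs, and control replicate 2 has no value. In both signals the model rats lie highest and the model + BHD rats lowest, while the ratios of control and model overlap.

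For uc.432+, Sup fell more than IP, so its ratio rose. Its Sup signal was 8.94, 9.18 and 8.76 in model and 8.36, 7.85 and 7.10 in model + BHD, a difference of -1.19 (SE 0.32, 2.28-fold, limma adjusted p = 0.601), and this was still called without BHD replicate 3 (-0.85) and within slide 2 (-0.87). Its IP signal differed by -0.54 (SE 0.21), which was under 1.5-fold. Its log2(IP/Sup) was -0.73, -0.59 and -0.70 in model and -0.28, 0.02 and 0.19 in model + BHD, a difference of +0.65 (SE 0.19, 1.57-fold, limma adjusted p = 0.434). The ratios did not overlap, but the call was lost with median centring (0.41), without BHD replicate 3 (0.54), and within slide 2 or with the slide as a block (0.51).

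For uc.354+, the IP signal was 8.97, 9.34 and 9.35 in model and 8.54, 8.53 and 8.41 in model + BHD, a difference of -0.73 (SE 0.14, 1.66-fold, limma adjusted p = 0.249). The spread within the model + BHD rats was small, 0.07 (SD, n = 3), and the difference within slide 2 was -0.81. Without normalization within arrays it was -0.56 and not called. The Sup signal of the same region was lower by -0.48 (SE 0.13), which was under 1.5-fold, and its ratio was 1.07 ± 0.10 in model and 0.82 ± 0.06 in model + BHD (SD, n = 3 each). The neighbouring uc.355+, named after its values were seen, had a difference in IP of -0.41 (SE 0.16).

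Each difference called between model + BHD and model, also those given above, was smaller without BHD replicate 3, the array alone on its slide. For uc.448-, the Sup signal was 11.26, 11.07 and 11.06 in model and 10.72, 9.91 and 8.08 in model + BHD, a difference of -1.56 (SE 0.56, 2.95-fold, limma adjusted p = 0.601). Without BHD replicate 3 it was -0.82 and still called. The call was lost within slide 2 (-0.75) and without model replicate 1 (-1.50) or 2 (-1.59). The IP signal of uc.448- was 9.95, 10.03 and 10.14 in model and 9.81, 9.36 and 7.66 in model + BHD, a difference of -1.10 (SE 0.47, limma adjusted p = 0.297) that was -0.46 and no longer called without that rat. Within slide 2 or with the slide as a block it was -0.50 and not called. Over the 12 other settings, this IP call held in 5. Without any 1 control or model rat the call was lost too, but the difference stayed between -1.14 and -1.05. The model + BHD rats thus ranged widely while the model rats lay close together.

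For uc.10-, uc.465-, uc.247+ and uc.115-, the difference was also smaller without the same rat. It was then under 1.5-fold, and the call was lost. For uc.10-, the IP signal was 9.35, 9.73 and 9.58 in model and 9.25, 9.20 and 8.07 in model + BHD, and the difference of -0.71 (SE 0.30, limma adjusted p = 0.291) was -0.33 without BHD replicate 3. For uc.465-, the Sup signal was 13.09, 12.96 and 13.06 in model and 12.80, 12.48 and 11.08 in model + BHD, and the difference of -0.91 (SE 0.37, limma adjusted p = 0.615) was -0.39 without it. In both regions the other model + BHD rats lay just below the model rats. Either call held in 2 of the 9 fits that left out 1 array, those without BHD replicate 1 or 2, while without any 1 control or model rat the call was lost but the difference stayed between -0.81 and -0.63 for uc.10- and between -0.95 and -0.89 for uc.465-. Over the 12 other settings, the call held in 5 for uc.10- and in 7 for uc.465-.

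For uc.247+, the Sup signal was 15.01, 15.30 and 15.19 in model and 15.02, 14.27 and 13.33 in model + BHD, and the difference of -0.96 (SE 0.37, limma adjusted p = 0.602) was -0.52 without BHD replicate 3. For uc.115-, the Sup signal was 8.01, 7.84 and 7.71 in model and 7.74, 7.25 and 6.49 in model + BHD, and the difference of -0.70 (SE 0.28, limma adjusted p = 0.610) was -0.36 without it. These are the called regions whose groups overlapped, with an exact permutation p of 0.2. Leaving out 1 array kept the call of uc.247+ in 5 of 9 fits and that of uc.115- in 3 of 9. Besides BHD replicate 3, the fits without model replicate 2, model replicate 3 or BHD replicate 2 lost both calls at differences close to those of all arrays, -0.89, -0.95 and -0.99 for uc.247+ and -0.70, -0.77 and -0.74 for uc.115-. The call of uc.115- was also lost without control replicate 2 (-0.70) or model replicate 1 (-0.62). Over the 12 other settings, the call of uc.247+ held in 9 and that of uc.115- in 8. None of the 4 calls held within slide 2.

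**Figure D4:**
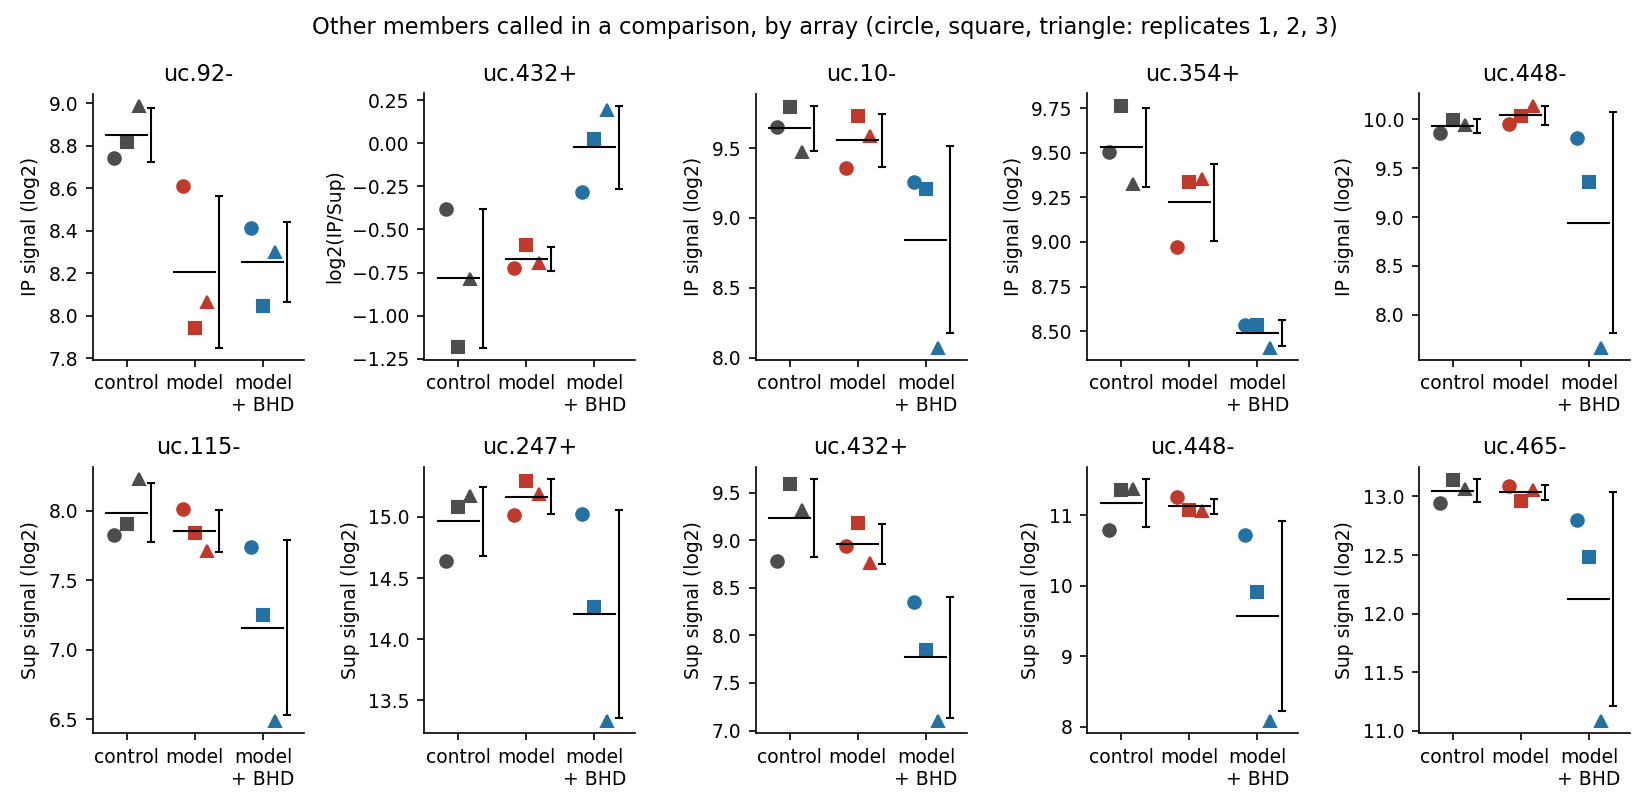
Log2 signal or log2(IP/Sup) in each rat (y axis) by group (x axis) for the called differences other than those of uc.440-, 1 panel each. Circles, squares and triangles are replicates 1, 2 and 3, lines are group means and bars SDs. For uc.448-, uc.10-, uc.465-, uc.247+ and uc.115- the triangle of model + BHD lies below all other points, whereas the 3 model + BHD rats of uc.354+ lie together.

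BHD replicate 3 gave low signals for many of the regions. Among those of the 55 regions that had a value on each array, its IP signal was the lowest of the 9 in 31 of 54 (57.4%), against 30.4% of 20878 probes measured as completely, and its Sup signal was the lowest in 34 of 54 (63%), against 32%. The same array also gave the highest IP signal in 9 of 54 regions (16.7%) and in 21.8% of those probes. For Sup the highest signal was there in 4 of 54 (7.41%) and 20.2%, so over all probes this array stood out in both directions. The shares are a description, since regions that neighbour each other may share a transcript. Whether the rat, its RNA or its slide goes with these low values cannot be told apart, since slide 3 held no other array.

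**Figure D5:**
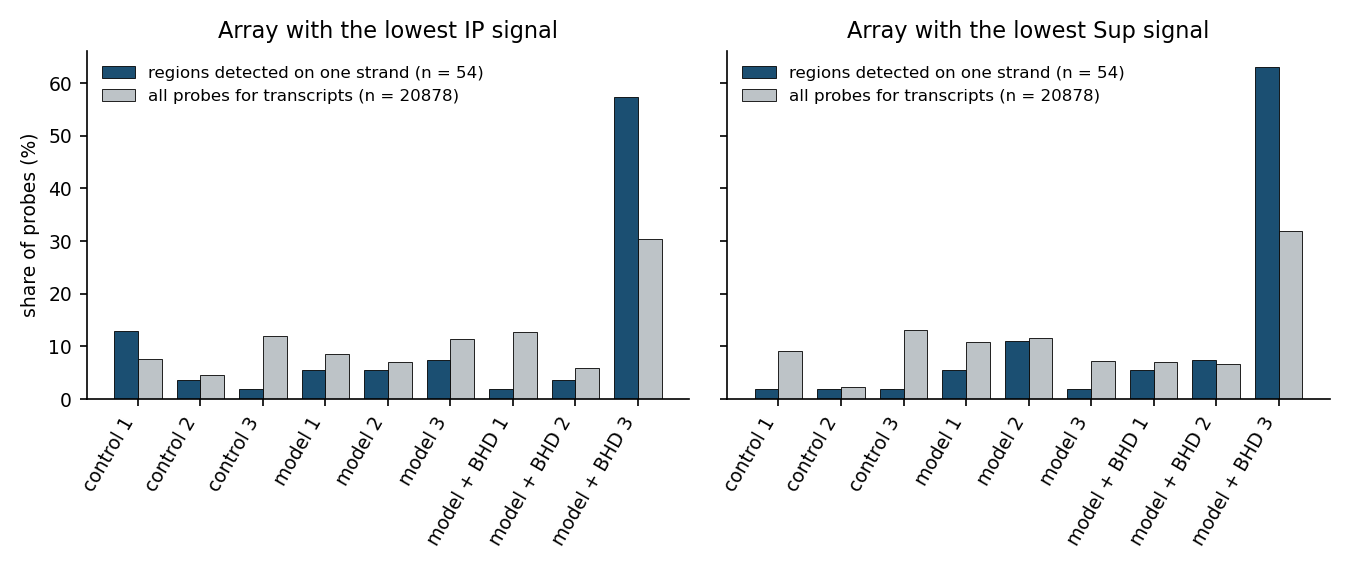
Percent of probes (y axis) whose lowest IP signal (left) or Sup signal (right) lay on each of the 9 arrays (x axis), for 54 regions and 20878 probes with both channels above background throughout. BHD replicate 3 holds 57.4% and 63% of the regions, against 30.4% and 32% of all such probes.

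At an unadjusted p under 0.05 without a minimum fold, 12 regions differed in the ratio (6.94%, against 10.8% of all probes), 24 in IP (13.9%, against 16.5%) and 10 in Sup (5.78%, against 7.86%). The ratio was higher in model + BHD for 9 and lower for 3, whereas 63.8% of such probes over the whole array were lower. In IP 22 were lower and 2 higher, and in Sup all 10 were lower, while over all probes 66.2% of those in IP and 73.5% of those in Sup were lower. The exceptions in IP, named after their values were seen, were uc.176+ with +0.44 (SE 0.08) and uc.451- with +0.18 (SE 0.06). Probes of regions detected on both strands went the same way in the ratio, with 15 higher and 7 lower. Their Sup signals were lower in all 12 cases, while in IP 16 were higher and 21 lower.

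Groups did not overlap for 23 of 171 regions in the ratio (13.5%, against 16.5% of all probes), for 51 in IP (29.8%, against 25.4%) and for 23 in Sup (13.5%, against 14.6%). Most of these were lower in model + BHD, 41 of 51 in IP (80.4%) and 22 of 23 in Sup (95.7%), as were 60.3% and 62.5% of such probes over the whole array. Among the probes of regions detected on both strands, 35 of 69 were lower in IP and 29 of 34 in Sup. The median change was -0.04 in IP and -0.06 in Sup over all regions, against -0.01 and -0.02 over all probes. Among the 55 regions measured in both channels on all arrays it was -0.20 in IP and -0.10 in Sup, against -0.03 and -0.02 over the probes measured as completely. The medians of all probes are held near 0 by the normalization, so these values are relative to the other probes.

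Other large differences did not pass the test. The IP signal of uc.465- was lower in model + BHD by -0.79 (SE 0.43, limma unadjusted p = 0.106). For uc.349+, named after its values were seen, the Sup signal was 6.23, 6.57 and 7.65 in model and 6.13, 6.19 and 6.08 in model + BHD, so that model replicate 3 lay apart, with a difference of -0.68 (SE 0.34, limma unadjusted p = 0.0841).

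Model + BHD and control were set side by side without a test, because no slide held both. For uc.440-, which was higher in model than in control, the model + BHD means were below those of control, by -1.37 in IP and -1.09 in Sup. For the regions that were lower in model + BHD than in model and not called between model and control, the differences from control were also negative: -1.61 in Sup for uc.448-, -1.46 in Sup for uc.432+, -1.04 in IP for uc.354+ and -0.80 in IP for uc.10-. For uc.92-, the mean IP signal was 8.85 ± 0.13 in control, 8.20 ± 0.36 in model and 8.25 ± 0.19 in model + BHD (SD, n = 3 each), so model + BHD stayed near model. The log2(IP/Sup) difference from control was 0.76 for uc.432+, 0.62 for uc.448- and -0.28 for uc.440-.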

How the data were processed

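The authors deposited, per the file headers, the scanner output of each 2-colour array, made with Agilent Feature Extraction 11.0.1.1, as intensity per spot in Cy5 (IP) and Cy3 (Sup), and the authors also deposited a log2 table of normalized values, used here as an alternative. Each array holds 44393 features, of which 41186 probes target transcripts. Spots with the outlier mark were left out, 1 array each for uc.440-, uc.349+, uc.481+ and uc.197+ (1 spot per probe). The median signals of the spots were background corrected (normexp, offset 50) and loess normalized within arrays with limma 3.58.1 (R 4.3.3). For the signals of the single channels, Aquantile normalization between arrays followed. A probe was tested when it was above background in IP or Sup on at least 3 arrays of the fit, with at least 2 values per group. Model against control was fitted on 6 arrays and BHD against model on all 9, with lmFit and eBayes, and p-values were adjusted over all probes tested (Benjamini-Hochberg). The fits were also run on simulated data, drawn independently for each probe and array without slide or replicate structure. Such data cannot show how slides or shared replicate numbers affect the calls. Figures were drawn with Python 3.11.15 and matplotlib 3.10.9.

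The rule gave 173 members in all. The members and lists were chosen with earlier results of these data known. Regions were named where the study lists primers for them, where a test called them, where they had the 5 highest or 5 lowest control ratios among regions above background in both channels on 9 arrays, the 5 highest signals or the 5 largest differences from the opposite strand, where they stood at the edge of the rule or in 1 group only, or where they were on a short list of known regions. The replicate numbers come from the labels. Deviations from the group means in log2(IP/Sup) correlated between same-numbered control and model rats with r = 0.440, 0.138 and 0.319. Between model and BHD rats the values were r = 0.599, 0.0421 and 0.262. These ranges overlap, so the correlations do not show pairing in the first comparison and its absence in the second. The replicate block was an alternative in both comparisons. No source says what the same numbers share. Slides were taken from scan times in the file headers, and 0 columns of per-sample values were left unused. The labels give each array as 1 replicate, which was taken as 1 rat, and the number of arrays limits the precision.

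Alternatives were the software's processed signals, median centring or no normalization within arrays, no normalization between arrays, other filters, outlier spots kept, replicate and slide blocks, single slides, the deposited table, adjusted p-values, other arrays in the fit, other detection rules and leaving out each array. Of 50 probes with an accession, 30 were matched to gene symbols of the GRCr8 gene table. Probe sequences and genome positions of the regions were not used here.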

Additional observations from a re-analysis of the deposited data

How the results depend on the processing

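The number of regions lay between 166 and 175 under other detection rules, with partly other members: 105 of 169 were shared for detection on all 9 arrays, 112 of 170 for both channels, 119 of 175 for Sup alone, 144 of 166 for 5 arrays, 164 of 168 for IP alone and 164 of 169 in the deposited table. It was 78 when a region had to be detected on all 9 arrays and its opposite strand on none, a rule chosen after seeing the data like that for both channels on all 9 arrays. Leaving out 1 array gave 168 to 176. For model against control, log2(IP/Sup) went from 0 called regions to 12 with processed signals (5 higher, 7 lower), 19 in the deposited table (all lower), and 1 each without normalization within arrays, with both channels above background on all arrays, and with the replicate block (leave-one-out 0 to 2). IP went from 2 to 11 with processed signals, 5 without normalization within arrays, 10 in the deposited table, 0 by adjusted p and 1 under the strict rule (leave-one-out 1 to 2). Sup went from 1 to 10 with processed signals, 4 without normalization within and 3 without it between arrays, 18 in the deposited table (17 higher), 2 each with the replicate block, the slide block, all 9 arrays and within slide 1, and 0 by adjusted p and under the strict rule (leave-one-out 1 to 4). For BHD against model, the ratio went from 1 to 20 both with processed signals and in the deposited table (10 higher, 10 lower), 6 without normalization within arrays, 5 both with the slide block and within slide 2, and 0 by adjusted p (leave-one-out 0 to 2). IP went from 4 to 38 with processed signals (31 lower), 32 in the deposited table (26 lower), 7 without normalization between arrays, 6 without normalization within arrays (4 higher, 2 lower), 2 each with median centring, outlier spots kept and 6 arrays in the fit, and 0 by adjusted p (leave-one-out 2 to 7). Sup went from 6 to 20 with processed signals (18 lower), 22 in the deposited table (21 lower), 10 without normalization within arrays, 3 with 6 arrays, 2 within slide 2 and 0 by adjusted p (leave-one-out 2 to 8). The cause of these shifts was not tested. Leaving out the loess step moved the median of all probes by -0.56 for the ratio of model against control and 0.51 for BHD against model, and the deposited table moved the former by -0.29, and its calls over all probes were 111 higher and 4493 lower, against 73 and 121 here. With the replicate block the ratio calls over all probes for model against control went from 194 to 806. For BHD against model, the block left 1 ratio, 3 IP and 6 Sup calls. No change of a called region reversed: 210 stayed called and 70 did not. The model-control difference of uc.440- could not be fitted without control replicate 1 or 3. Dim probes are limited by the offset, which draws their ratios towards 0.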
